A study of Mus musculus with 6 samples.

Results

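Cells carrying a green fluorescent reporter for parvalbumin were sorted from mouse embryonic fibroblasts induced toward parvalbumin neurons, and their expression profile was set against that of the unsorted culture after the same 14 days of induction. The comparison used 2 of the 6 arrays of the series, chosen by their labels, sorted induced PV-GFP+ cells and iPV cells at 14 dpi. The other 4 arrays, mouse embryonic fibroblasts (MEF), induced cells at 3 and 7 days and cells labelled as endogenous parvalbumin (PV) neurons, served only to choose 1 probe set per gene, to set the floor and to place the compared arrays. All 6 samples share the PV-GFP transgene, the strain C57BL/6, embryos of 13.5 days and a protocol text on fibroblast culture and adenovirus infection, per the labels. The labels used here state neither the infected factors nor the gate of the sort, and they name no culture, animal or pool. Each group had 1 array, so no difference has a replicate check, no test was possible, and every value describes these 2 arrays.

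Parvalbumin interneurons are fast-spiking inhibitory neurons of the brain. They make the transmitter GABA with the enzymes encoded by Gad1 and Gad2, load it into vesicles with the transporter encoded by Slc32a1, and buffer calcium with parvalbumin itself. Sorting by a fluorescent reporter keeps the cells in which the reporter is bright enough, whatever else they express.

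Values were log2 intensities of 22180 genes, 1 probe set each. A floor of 5.01, the median over the probe sets that are not controls, replaced lower values before differences were taken. Where 1 of the compared values was under it, the fold is a bound and is written "at least". A difference is sorted minus unsorted on the log2 scale, and 1 unit is 2-fold. Of 13198 genes above the floor on either array, 280 (2.12%) were at least 2-fold higher in sorted cells and 135 (1.02%) at least 2-fold lower. The median difference over these 13198 genes was 0.02, and 52.6% of the 13198 genes had positive differences. Counts past 2-fold or of 1 sign in the lists below stand beside these shares. Of the 13198 genes, 697 were above the floor in sorted cells only and 691 in unsorted cells only. Such a gene can differ only toward the array that measured it. The 11810 genes above the floor on both arrays had a median of 0.03. At 4-fold the balance turned, with 9 genes higher and 13 lower. Between probe sets of 1 gene, the differences scattered with a standard deviation of 0.33 (328 genes), a technical spread that leaves out variation between cultures. In the plot of the sorted against the unsorted array, genes past 2-fold lie at every level of brightness.

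**Figure D1:**
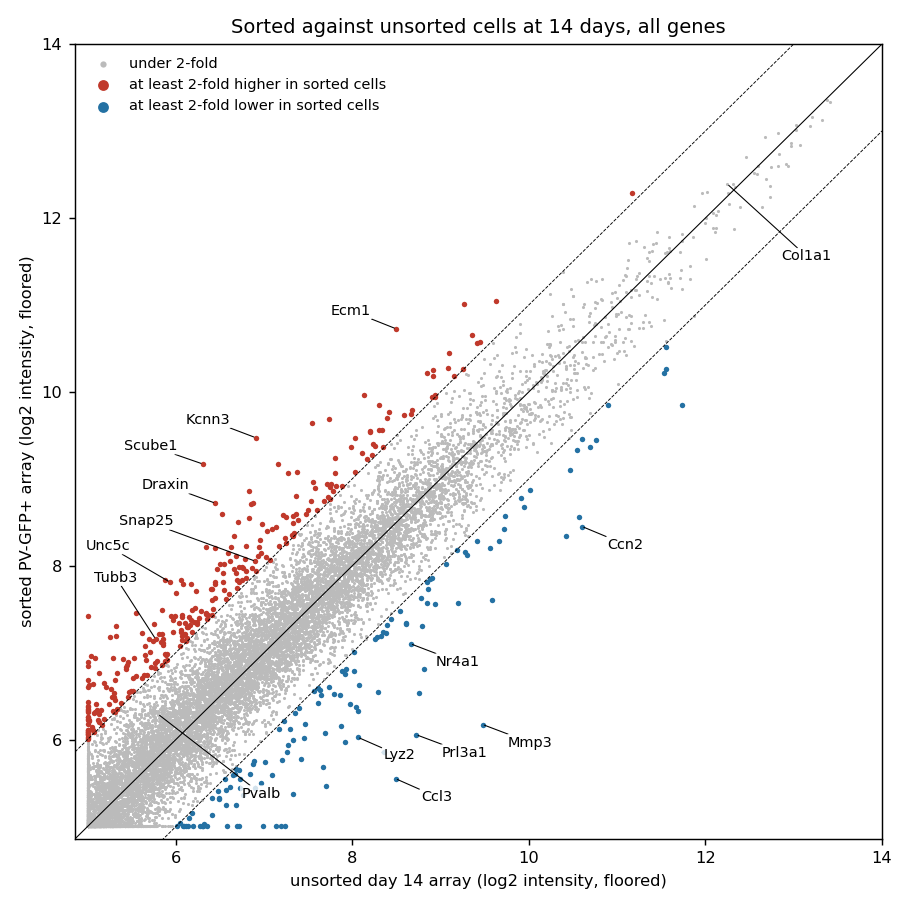
Each point is 1 of 22180 genes, with its log2 intensity in unsorted day 14 cells on the horizontal axis and in sorted PV-GFP+ cells on the vertical axis, both raised to the floor of 5.01. The solid line marks equal values and the dashed lines mark 2-fold, past which 280 genes were higher in sorted cells (red) and 135 lower (blue). Lines lead from 15 labelled genes to their points, and Pvalb and Col1a1 lie inside the 2-fold lines.

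The reporter's own gene was close to the floor on both arrays. Pvalb had 6.29 in sorted cells and 5.80 in unsorted day 14 cells, a difference of 0.49, or 1.40-fold. The sorted array had the highest Pvalb value of the 6, ahead of 6.15 at day 7, while MEF had 5.23. Gad1 had 4.68 in sorted cells and 4.93 in unsorted cells, and Gad2 had 4.49 in sorted cells and 4.61 in unsorted cells. Both enzymes were thus under the floor on both arrays, and no fold is given. Slc32a1 was under the floor in sorted cells, at 4.46, and had 5.21 in unsorted cells. Of these defining genes of the labelled cell type, Pvalb alone was above the floor in sorted cells. The fibroblast genes Col1a1 and Col1a2, which encode the chains of type I collagen, stayed among the brightest. Col1a1 had 12.39 in sorted cells and 12.25 in unsorted cells, and Col1a2 had 11.62 in sorted cells and 11.59 in unsorted cells. In RNA of a whole sample, fewer cells of a type and less RNA per cell cannot be told apart.

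Among 24 measured genes of parvalbumin interneurons, 14 were above the floor on either array, 1 was at least 2-fold higher and 1 at least 2-fold lower. Their median difference was -0.06. It turned to 0.11 when each array was centred on housekeeping genes, a step that moved the median of all genes to 0.18. Ppargc1a, a transcriptional coactivator of mitochondrial genes, had 6.09 in sorted cells and 4.64 in unsorted cells, at least 2.11-fold higher. Kcnh2, a potassium channel, had 6.76 in sorted cells and 5.80 in unsorted cells, just under 2-fold. Kcnab1, a potassium channel beta subunit, had 5.78 in sorted cells and 7.42 in unsorted cells, 3.11-fold lower. For Kcnab1 the sorted array was the lowest of the 6 and the unsorted array the highest, and MEF had 7.19. Nek7, Gpr176 and Eya1 of this list had their highest values of the 6 arrays in MEF, at 9.73, 7.98 and 7.16. Pvalb and Hapln4 had their lowest values there. The list's median thus mixes genes that were bright in fibroblasts with genes that were not. The fast potassium channels Kcnc1 and Kcnc2 and the sodium channel Scn1a, which serve fast spiking, were under the floor on both arrays.

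Lhx6, a transcription factor of interneurons from the medial ganglionic eminence, had 5.48 in sorted cells and 6.16 in unsorted cells, a difference of -0.68. Here too the sorted array was the lowest of the 6 and the unsorted array the highest. Of 11 measured genes of GABAergic neurons, 6 were above the floor and 0 passed 2-fold in either direction. The largest difference among them was that of Abat, which encodes the enzyme that breaks GABA down, with 7.93 in sorted cells and 7.10 in unsorted cells. The list's median of 0.00 had no settled sign. It was -0.05 after quantile normalization and -0.29 without a floor, but 0.26 under housekeeping centring and 0.83 with the floor at percentile 75. Its 4 members above the floor on both arrays had a median of 0.21.

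Genes of other neuron classes were divided. Of 14 measured genes of other interneuron classes, 9 were above the floor and 2 passed 2-fold, both higher, with a median of 0.43. Htr3a, a serotonin receptor channel, had 6.86 in sorted cells and 5.45 in unsorted cells, 2.67-fold higher. Nos1, neuronal nitric oxide synthase, had 6.07 in sorted cells and 4.96 in unsorted cells, at least 2.08-fold higher. Nos1 was among 4 of the 9 that were above the floor in sorted cells only, and the 5 above it on both arrays had a median of 0.45, with Htr3a alone past 2-fold. The neuropeptide gene Cck had 10.38 in sorted cells and 9.61 in unsorted cells, and Sst, the peptide of a separate interneuron class, had 5.33 in sorted cells and 5.52 in unsorted cells. Glutamatergic genes were mostly under the floor, with 5 of 13 above it and a median of -0.00, which lay between -0.27 without a floor and 1.04 under housekeeping centring. Slc17a7, a vesicular glutamate transporter, had 6.06 in sorted cells and 4.88 in unsorted cells, at least 2.06-fold higher. Camk2a, a kinase of excitatory synapses, had 6.98 in sorted cells and 5.90 in unsorted cells, 2.12-fold higher. On both genes the other 5 arrays lay below the sorted one. The other members above the floor had small negative differences, of which that of Bcl11b, a transcription factor of deep-layer cortical neurons, was the largest, with 6.20 in sorted cells and 6.46 in unsorted cells. Of 14 genes of other transmitters 4 were above the floor, with 0 past 2-fold and a median of -0.12, or 0.03 under housekeeping centring.

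Genes of the neuronal cytoskeleton and of neurons in general were mostly higher in sorted cells. Of 30 pan-neuronal genes, 26 were above the floor, 6 were at least 2-fold higher and 0 lower, and the median was 0.53. Positive differences were found for 20 of the 26, against 52.6% of all genes above the floor. Of the 20, 2 were above the floor in sorted cells only. The median over the 24 above it on both arrays was 0.65. Tubb4a, a beta-tubulin of neurons, had 8.02 in sorted cells and 6.50 in unsorted cells, 2.87-fold higher. Ina, a neuronal intermediate filament, had 6.90 in sorted cells and 5.46 in unsorted cells, 2.71-fold higher. Tubb3, the tubulin most used as a neuronal marker, had 7.16 in sorted cells and 5.77 in unsorted cells, 2.62-fold higher. For each of these 3 genes the sorted array stood above all other arrays.

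Map2, a microtubule protein of dendrites, differed by 1.12 and Crmp1, a semaphorin signal mediator, by 1.08. Map2 had 7.19 in sorted cells and 6.07 in unsorted cells, yet MEF had 7.20, so its sorted value was not above that of fibroblasts. The neurofilament genes Nefh, Nefl and Nefm differed by 0.99, 0.66 and 0.64. Other neuronal markers did not share this direction. Rbfox3, a splicing factor of mature neurons, had 5.78 in sorted cells and 6.06 in unsorted cells, Stmn2 had 7.14 in sorted cells and 7.71 in unsorted cells, and Dcx, a microtubule protein of young neurons, was under the floor on both arrays.

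Synaptic vesicle genes were more divided. Of 24 above the floor, 4 were at least 2-fold higher, 0 lower, and the median was 0.26. Snap25, a fusion protein of synaptic vesicles, had 8.05 in sorted cells and 6.90 in unsorted cells, 2.23-fold higher. Syt7, a calcium sensor of release, had 6.32 in sorted cells and 5.09 in unsorted cells, 2.34-fold higher. Rab3a, a vesicle GTPase, and Snap91, an adaptor of vesicle retrieval, were each 2.08-fold higher. In the other direction, Rims1, an active zone scaffold, had 5.51 in sorted cells and 6.39 in unsorted cells. Syp, the vesicle marker synaptophysin, had 5.44 in sorted cells and 5.28 in unsorted cells.

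Dense-core granule genes had positive differences, most of them under 2-fold. The granins are cargo proteins of the granules that hold peptide hormones and neuropeptides, and 11 of 14 measured genes of these granules were above the floor. Scg3, Pcsk1 and Resp18 were under it on both arrays. The 11 had positive differences, between 0.27 and 1.32, with a median of 0.64, although Chga alone passed 2-fold. For 3 of them, Scg5, Ptprn2 and Cadps, which were above the floor in sorted cells only, the sign was fixed by the floor. The 8 above it on both arrays had a median of 0.63. Chga, chromogranin A, had 6.98 in sorted cells and 5.66 in unsorted cells, 2.50-fold higher. Chgb, its relative, had 6.35 in sorted cells and 5.49 in unsorted cells, against 3.83 in MEF. Ptprn, a granule membrane protein, had 9.19 in sorted cells and 8.32 in unsorted cells. The sorted array was the highest of the 6 for 9 of the 11 genes, where this held for 26.8% of all genes above the floor, a share over genes of both signs.

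Voltage-gated channel genes had a median of 0.31 over 18 of 31 above the floor, with 3 at least 2-fold higher and 0 lower. Of the 18, 6 were above the floor in sorted cells only, and the 11 above it on both arrays had a median of 0.22, with 2 at least 2-fold higher. With the floor at percentile 75 the list's median was 0.13. Cacna1h, a low-threshold calcium channel, had 8.02 in sorted cells and 6.55 in unsorted cells, 2.77-fold higher. Cacna2d1, an accessory subunit of calcium channels, had 8.08 in sorted cells and 6.78 in unsorted cells, 2.46-fold higher. Kcnma1, the large-conductance calcium-activated potassium channel, had 6.10 in sorted cells and 5.01 in unsorted cells, at least 2.13-fold higher. Kcnn3, a small-conductance channel of the same calcium-activated kind, was not on that list and had the second-largest positive difference of all named genes. It had 9.47 in sorted cells and 6.91 in unsorted cells, 5.93-fold higher, against 5.26 in MEF, 7.87 at day 3 and 6.80 at day 7.

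Axon guidance genes included several of the clearest differences. Of 31 above the floor, 5 were at least 2-fold higher and 0 lower, and the median was 0.29. Unc5c, a netrin receptor, had 7.81 in sorted cells and 5.93 in unsorted cells, 3.68-fold higher. Robo1, a receptor for Slit repellents, had 9.85 in sorted cells and 8.31 in unsorted cells, 2.92-fold higher. Epha7, an ephrin receptor, had 7.42 in sorted cells and 5.94 in unsorted cells, and the semaphorin receptor subunit Plxna2 had 7.92 in sorted cells and 6.54 in unsorted cells. On Unc5c, Robo1 and Epha7 the sorted array was the highest of the 6 and the unsorted array the lowest. These 4 genes and Nrp2, the fifth past 2-fold, encode receptors or receptor subunits. Of the 31 genes, 24 had positive differences and 7 negative ones. Among the 7 were the secreted ligand genes Ntn1, Sema3c and Sema3e, with differences of -0.26, -0.32 and -0.44. Receptor and ligand genes were not counted over the whole list. Draxin, a secreted repellent that was not on the list, had 8.72 in sorted cells and 6.45 in unsorted cells, 4.83-fold higher, and it lay between 5.82 and 6.59 on the other 5 arrays.

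**Figure D2:**
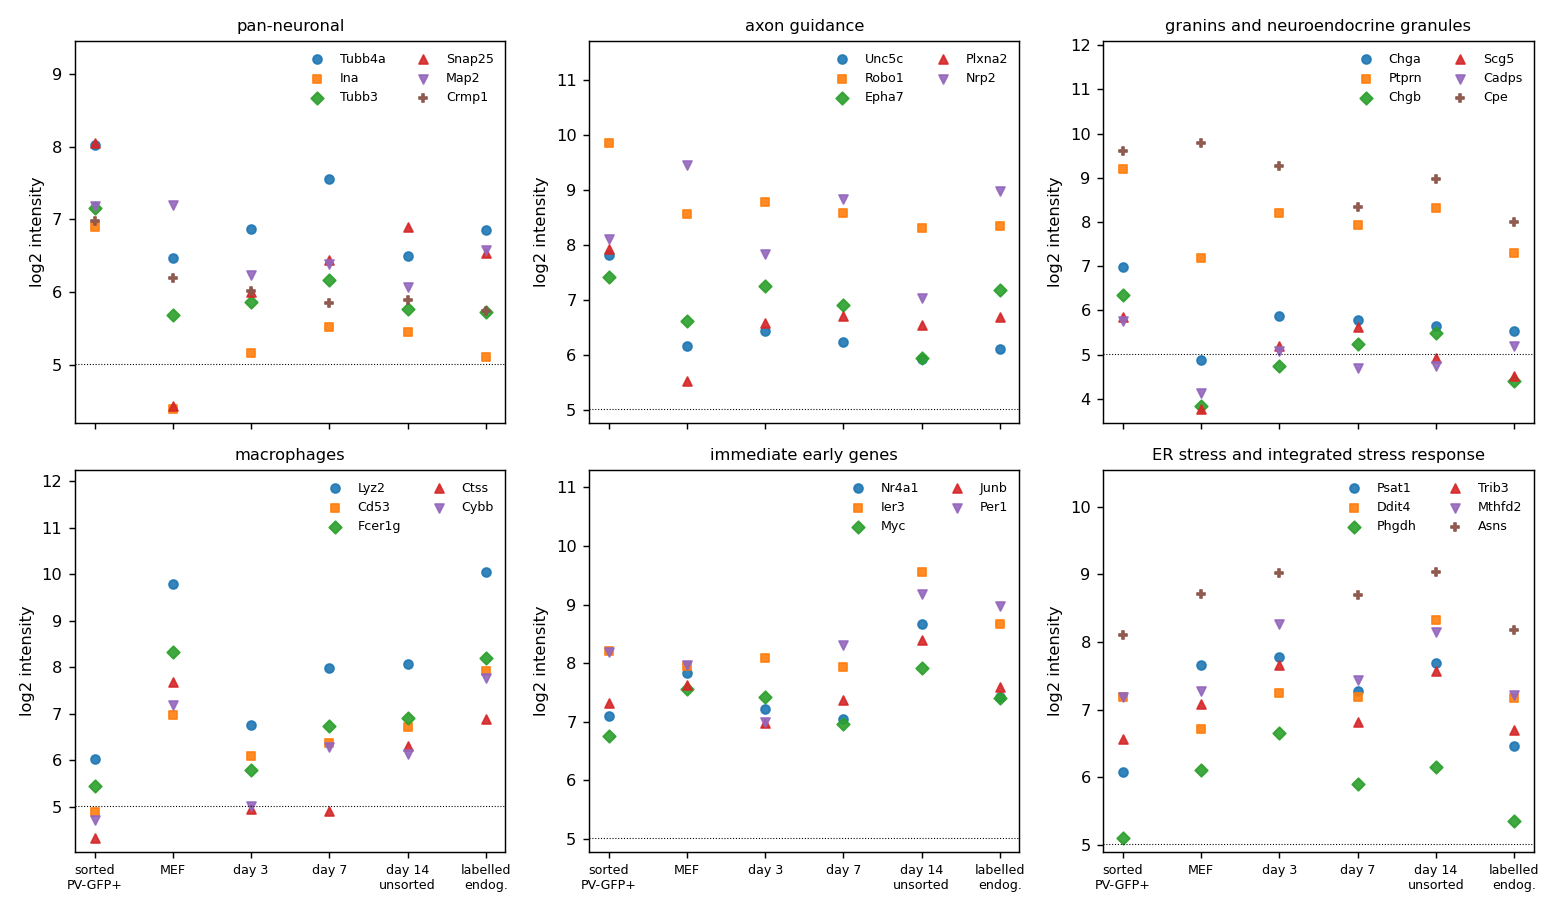
Log2 intensity on each of the 6 arrays, in the order sorted cells, MEF, day 3, day 7, unsorted day 14 and the array labelled endogenous, for members of 6 gene lists, with the floor of 5.01 dotted. Upper panels show members higher in sorted cells, such as Tubb4a at 8.02 in sorted cells and 6.50 in unsorted cells, and lower panels members lower in sorted cells, such as Lyz2 at 6.03 in sorted cells and 8.06 in unsorted cells.

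Early neurogenic regulators were divided. Of 32 measured, 21 were above the floor, 3 were at least 2-fold higher and 0 lower, and the median of -0.08 turned to 0.09 under housekeeping centring and also over the 19 above the floor on both arrays. Ebf3, a transcription factor of differentiating neurons, had 6.94 in sorted cells and 5.29 in unsorted cells, 3.15-fold higher. Dll3, a Notch pathway protein, had 7.40 in sorted cells and 6.26 in unsorted cells, 2.20-fold higher. Hes6, a helix-loop-helix factor that promotes neurogenesis, had 8.07 in sorted cells and 7.06 in unsorted cells, at the 2-fold line. Rest, the repressor of neuronal genes in other cells, had 6.92 in sorted cells and 6.99 in unsorted cells.

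Hox genes, the homeobox genes that set position along the body axis, had the third-highest median of the lists with 5 or more members above the floor. Of 29 above the floor, 23 had positive differences, 2 passed 2-fold, both higher, and the median was 0.45. Over all genes above the floor, 52.6% had positive differences. The median was also 0.45 over the 24 above the floor on both arrays, 19 of them positive. Hoxa5 had 7.73 in sorted cells and 6.41 in unsorted cells, 2.50-fold higher. Hoxa2 had 6.91 in sorted cells and 5.88 in unsorted cells, 2.03-fold higher. Hoxb5 had 7.17 in sorted cells and 6.24 in unsorted cells. In the other direction, Hoxb9 had 8.13 in sorted cells and 8.55 in unsorted cells. Hoxd13, of the most posterior group, was also at least 1.88-fold higher, with 5.92 in sorted cells and 3.92 in unsorted cells.

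Array-wide differences lay beside these. The kind of the 5333 control probe sets is not stated in the sources used here. Their median was 4.72 on the sorted array and 4.25 on the unsorted one. It was 4.72 at day 3, 4.64 in MEF, 4.62 on the array labelled endogenous and 4.43 at day 7. The unsorted day 14 array thus had the lowest control median of the 6, and the sorted array was close to day 3. Of 2509 control probe sets above the floor on either array, 265 (10.6%) were at least 2-fold higher on the sorted array and 31 (1.24%) at least 2-fold lower. The median difference also followed the genomic length of genes. In the shortest of 10 equal groups of genes it was -0.06, with 27 genes at least 2-fold higher and 21 lower. In the longest group, of at least 121 kb, it was 0.18, with 64 genes (4.86%) at least 2-fold higher and 13 (0.986%) lower. Without the neuronal lists the longest group still had a median of 0.17.

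Once each difference was taken relative to genes of similar length, the axon guidance median was 0.10, the synaptic one 0.17 and that of the channel genes 0.19. The pan-neuronal median was then 0.52, that of the granule genes 0.61 and that of the Hox genes 0.45, each close to its value without this step. The part of gene length and of the control probe sets in the neuronal differences was not tested.

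**Figure D3:**
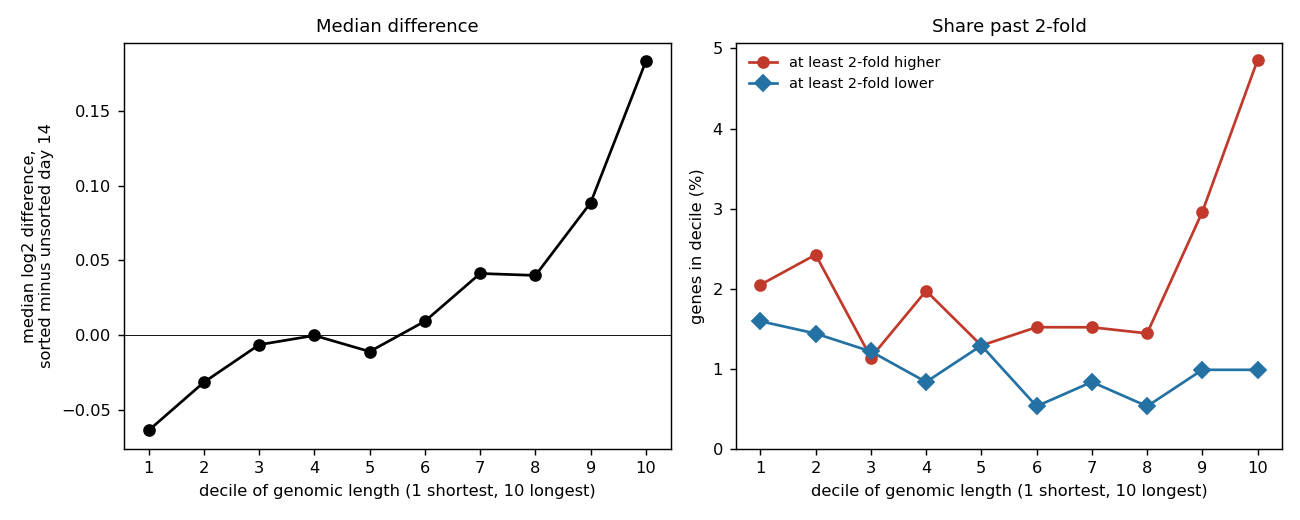
Genes above the floor in 10 groups of equal size by genomic length, from shortest to longest, with the median log2 difference of sorted minus unsorted cells on the left and the percentage of genes past 2-fold on the right. The median runs from -0.06 in the shortest group to 0.18 in the longest, where the share at least 2-fold higher reaches 4.86%.

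The largest positive difference was that of Scube1, a secreted and cell-surface glycoprotein, which had 9.17 in sorted cells and 6.31 in unsorted cells, 7.29-fold higher, and at most 7.59 on the other 4 arrays. Ecm1, a secreted matrix protein, had 10.73 in sorted cells and 8.50 in unsorted cells, 4.69-fold higher, and between 8.31 and 8.85 on the other arrays. Bmp7, a bone morphogenetic protein, had 9.17 in sorted cells and 7.16 in unsorted cells, 4.03-fold higher. Atp2b4, a calcium pump of the plasma membrane, had 9.69 in sorted cells and 7.73 in unsorted cells, 3.89-fold higher. Scube1, Ecm1, Bmp7 and Atp2b4 each had their highest value of the 6 arrays in sorted cells.

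Mest and Pi15 behaved otherwise. Mest, an imprinted gene of growing mesoderm, had 8.59 in sorted cells and 6.53 in unsorted cells, 4.17-fold higher, but 8.69 at day 7. For Mest the unsorted day 14 array was the lowest of the 6. Pi15, a peptidase inhibitor, had 8.87 in sorted cells and 6.83 in unsorted cells, 4.10-fold higher, but 9.73 at day 7 and 9.60 on the array labelled endogenous. Brinp3, expressed in the nervous system, had 7.84 in sorted cells and 5.88 in unsorted cells, and the long noncoding RNA Miat had 6.96 in sorted cells and 5.05 in unsorted cells. The steroid dehydrogenase gene Hsd3b6, which has close paralogs, had 6.90 in sorted cells and 3.25 in unsorted cells, at least 3.69-fold higher, and 6.36 at day 3. Zfp992, Rassf4 and Ajap1 were the other genes among the 15 with the largest positive differences, between 1.87 and 1.97.

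The lower side was led by a protease and by secreted and leukocyte genes. Mmp3, the matrix protease stromelysin-1, had 6.18 in sorted cells and 9.48 in unsorted cells, 9.86-fold lower. Mmp3 had 10.64 in MEF, 6.77 at day 3 and 9.32 at day 7, so only the day 3 array was near the sorted value. Ccl3, a chemokine of macrophages, had 5.55 in sorted cells and 8.49 in unsorted cells, 7.67-fold lower. Prl3a1, a prolactin family gene known from placenta, had 6.06 in sorted cells and 8.73 in unsorted cells, 6.36-fold lower. For Prl3a1 the sorted value lay within the range of the other arrays, and the unsorted value was the highest of the 6. Lilrb4a, an inhibitory receptor of myeloid cells with a near-identical neighbour, had 5.86 in sorted cells and 8.36 in unsorted cells, 5.68-fold lower.

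Ccn2, a matricellular protein also called connective tissue growth factor, had 8.45 in sorted cells and 10.60 in unsorted cells, 4.44-fold lower. F3, tissue factor, had 8.56 in sorted cells and 10.57 in unsorted cells, 4.03-fold lower. Fmo2, a flavin monooxygenase, had 8.34 in sorted cells and 10.42 in unsorted cells, 4.22-fold lower. The secreted lectin gene Reg3g had 4.15 in sorted cells and 7.19 in unsorted cells, at least 4.53-fold lower, and the chemokine gene Ccl6 had 4.59 in sorted cells and 7.13 in unsorted cells, at least 4.35-fold lower. Apod, Mup3, Fhl5, Cmah and Atp8b1 were the other genes among the 15 with the largest negative differences, and Mup3 belongs to a family of near-identical copies that a probe set may not separate.

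**Figure D4:**
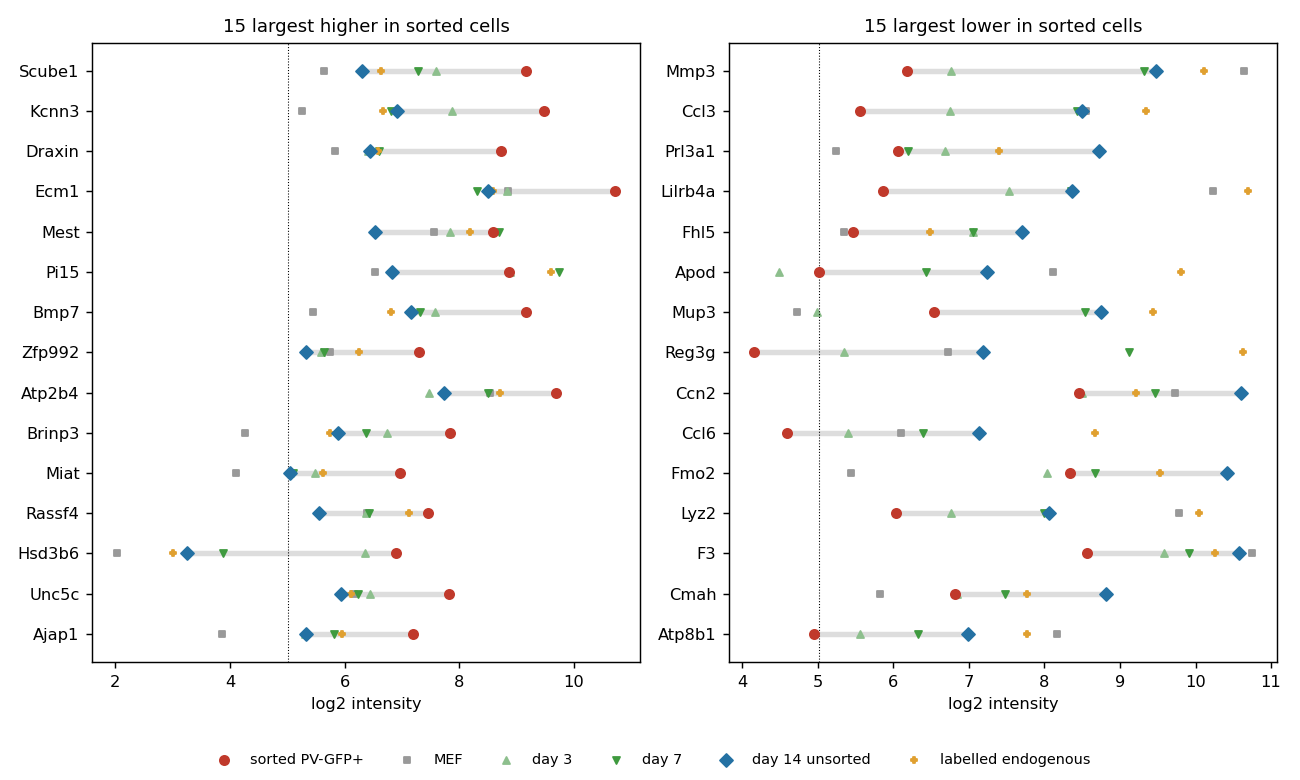
Log2 intensity of the 15 genes with the largest positive (left) and negative (right) differences, 1 row per gene, with a symbol for each of the 6 arrays and a grey bar joining sorted and unsorted day 14 cells. The dotted line is the floor of 5.01. Scube1 at 9.17 in sorted cells and Mmp3 at 6.18 in sorted cells lie outside the range of the other 5 arrays.

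Which of the compared arrays stood apart differed by direction. Among the 280 higher genes, the sorted array was above all other 5 in 227 (81.1%), and the unsorted array was below all other 5 in 89 (31.8%). Among the 135 lower genes, the sorted array was below the other 5 in 81 (60%) and the unsorted array above the other 5 in 66 (48.9%). Over all 13198 genes above the floor, the sorted array was the highest for 26.8% and the lowest for 11.2%, and the unsorted array was the highest for 18.8% and the lowest for 9.93%. Genes chosen for a high sorted or a low unsorted value lie at such an end more often by that choice, and likewise in the other direction, so these shares over all genes are no like-for-like background.

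Macrophage genes included several that were lower in sorted cells. Of 26 measured, 22 were above the floor. Among these, 5 were at least 2-fold lower and 0 higher, and the median was -0.38. The floor fixed the direction of 14 of the 22, which were above it in unsorted cells only, and of 1 above it in sorted cells only. Of the 7 above it on both arrays, 5 had negative differences and 2 of these were at least 2-fold lower, with a median of -0.53. Lyz2, lysozyme, had 6.03 in sorted cells and 8.06 in unsorted cells, 4.10-fold lower. Cd53, a leukocyte tetraspanin, had 4.88 in sorted cells and 6.71 in unsorted cells, at least 3.25-fold lower. Fcer1g, an Fc receptor subunit, had 5.45 in sorted cells and 6.90 in unsorted cells, 2.74-fold lower. Ctss, a lysosomal protease, was at least 2.46-fold lower and Cybb, a subunit of the phagocyte oxidase, at least 2.17-fold lower. In sorted cells 18 of the 26 genes were under the floor, against 5 in unsorted cells.

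The summed intensity of the 26 macrophage genes, taken without the floor, was 848 in sorted cells and 1504 in unsorted cells. MEF had 2992, the day 3 array 936, the day 7 array 1446 and the array labelled endogenous 3729. With 18 of the 26 genes under the floor in sorted cells and 5 in unsorted cells, background is part of each sum. Ratios of the sums therefore do not measure macrophage RNA. Among defining markers, Ptprc, Mrc1 and Aif1 were under the floor on both compared arrays. Adgre1, the F4/80 antigen, had 3.84 in sorted cells and 5.35 in unsorted cells. Csf1r, the receptor that macrophages need to survive, had 5.15 in sorted cells and 5.12 in unsorted cells, and Cd68 had 7.19 in sorted cells and 6.79 in unsorted cells. The part of macrophages in the lower Mmp3, Ccl3 and cytokine values was not tested.

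Fibroblast genes gave few differences. Of 38 above the floor, 1 was at least 2-fold higher and 1 at least 2-fold lower, and the median of -0.08 turned to 0.08 under housekeeping centring. Tgfbi, a matrix protein induced by TGF-beta, had 8.22 in sorted cells and 6.63 in unsorted cells, 3.01-fold higher, and the unsorted array was the lowest of the 6. S100a6, a calcium-binding protein, had 8.42 in sorted cells and 9.72 in unsorted cells, 2.47-fold lower. Vim, the mesenchymal intermediate filament, had 11.20 in sorted cells and 11.61 in unsorted cells. Among proteoglycans and matricellular genes, Vcan, versican, was 2.21-fold higher in sorted cells, and Prelp, a leucine-rich proteoglycan, 2.22-fold lower.

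Contractile genes of smooth muscle and myofibroblasts had a median of -0.39 over 18 genes, with 1 at least 2-fold higher and 3 at least 2-fold lower. Tagln, transgelin, had 9.44 in sorted cells and 10.76 in unsorted cells, 2.50-fold lower. Itga8, an integrin of myofibroblasts, had 6.55 in sorted cells and 8.29 in unsorted cells, 3.33-fold lower. Ankrd1, a target of the transcriptional coactivator YAP, had 10.52 in sorted cells and 11.55 in unsorted cells, 2.05-fold lower. Des, the intermediate filament desmin, went the other way, with 8.42 in sorted cells and 7.09 in unsorted cells, 2.51-fold higher.

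Genes of growth signals and of matrix proteases were split by member. Igfbp5 had 11.00 in sorted cells and 9.26 in unsorted cells, 3.34-fold higher, and Igfbp4 was 2.41-fold higher, while Igfbp3 had 10.27 in sorted cells and 11.55 in unsorted cells, 2.44-fold lower. These 3 genes encode binding proteins of insulin-like growth factors. Of 30 Wnt pathway genes above the floor, 3 were at least 2-fold higher and 1 at least 2-fold lower. The Wnt receptor gene Fzd1 had 8.40 in sorted cells and 7.04 in unsorted cells, and the Wnt antagonist gene Nkd2 had 5.99 in sorted cells and 7.33 in unsorted cells. Ltbp2, of the family named latent TGF-beta binding proteins, was 2.78-fold lower in sorted cells, the only gene of its list of 27 past 2-fold. Among matrix proteases, Mmp9, a gelatinase, had 8.05 in sorted cells and 6.61 in unsorted cells, opposite in direction to Mmp3, and Adamts4, an aggrecan-cleaving protease, had 8.58 in sorted cells and 7.33 in unsorted cells.

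**Figure D5:**
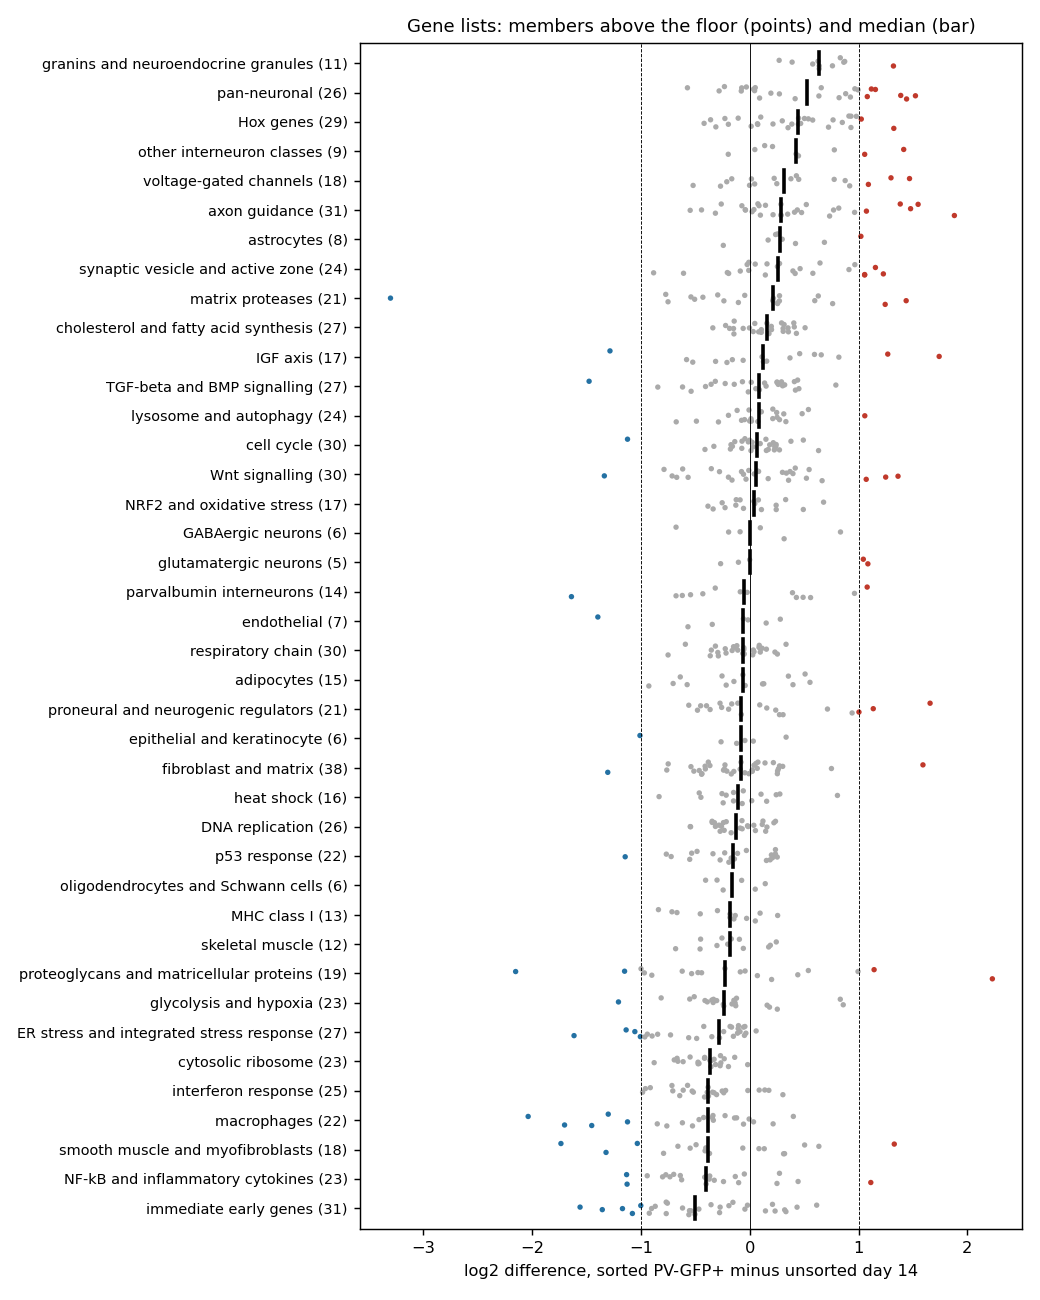
Differences of sorted minus unsorted day 14 cells on the log2 scale for members of each gene list with 5 or more genes above the floor, the number of which stands in brackets. Points past the dashed 2-fold lines are red (higher in sorted cells) or blue (lower), and black bars mark medians, from 0.64 for granule genes at the top to -0.50 for immediate early genes at the bottom.

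Immediate early genes, which cells switch on within minutes of a stimulus, had the lowest list median, -0.50. This rank did not hold in every setting. Without a floor the macrophage median was -0.75. With the mean of probe sets the immediate early median was -0.36 and that of smooth muscle genes -0.39. Of 31 above the floor, 0 were at least 2-fold higher and 5 at least 2-fold lower. Nr4a1, a nuclear receptor, had 7.10 in sorted cells and 8.66 in unsorted cells, 2.95-fold lower. Ier3 had 8.20 in sorted cells and 9.56 in unsorted cells, 2.56-fold lower. Myc had 6.75 in sorted cells and 7.92 in unsorted cells, 2.25-fold lower, and Junb, a subunit of the AP-1 factor, had 7.32 in sorted cells and 8.40 in unsorted cells, 2.11-fold lower. Per1, a clock gene that also responds early to stimuli, had 8.18 in sorted cells and 9.19 in unsorted cells. Not all members lay on this side. Jun had 9.34 in sorted cells and 8.91 in unsorted cells, and Nr4a2 had 6.74 in sorted cells and 6.13 in unsorted cells. The unsorted array was the highest of the 6 for 13 of the 31 genes.

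Inflammatory cytokines and NF-kB targets had a median of -0.40 over 23 genes. Ccl2, a monocyte chemokine, had 8.78 in sorted cells and 9.91 in unsorted cells, 2.19-fold lower, and Il6 had 7.73 in sorted cells and 8.86 in unsorted cells, 2.18-fold lower. Cxcl12, a chemokine of stromal cells, was 2.16-fold higher, with 9.79 in sorted cells and 8.68 in unsorted cells. Elsewhere among signalling targets, Ccnd1, cyclin D1, had 8.16 in sorted cells and 9.28 in unsorted cells, 2.18-fold lower, the only cell cycle gene of 30 past 2-fold. Mki67, a marker of cycling cells, had 7.77 in sorted cells and 7.14 in unsorted cells.

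The integrated stress response lowers protein synthesis and lets the factor ATF4 switch on genes of amino acid supply. Of its 27 genes above the floor together with those of ER stress, 4 were at least 2-fold lower in sorted cells and 0 higher. Negative differences were found for 26 of them, against 6246 of all 13198 genes above the floor. The list's median was -0.28. Under housekeeping centring that median was -0.11, the 25 housekeeping genes themselves having one of -0.23 with 20 negative. Psat1, an enzyme of serine synthesis, had 6.07 in sorted cells and 7.69 in unsorted cells, 3.06-fold lower. Phgdh, the first enzyme of that pathway, had 5.10 in sorted cells and 6.15 in unsorted cells, 2.08-fold lower. Trib3, a pseudokinase induced by ATF4, had 6.56 in sorted cells and 7.57 in unsorted cells, 2.01-fold lower. Ddit4, an inhibitor of mTORC1, was 2.20-fold lower. Asns, asparagine synthetase, had 8.10 in sorted cells and 9.04 in unsorted cells, and Atf4 itself had 7.85 in sorted cells and 8.75 in unsorted cells. The ER chaperone genes Hspa5 and Hsp90b1 differed by only -0.17 and -0.10.

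The promoters of Trib3 and Asns are shown because both hold the letters TGATGNAA, the core of the element that ATF4 and C/EBP proteins bind as a pair. The sequences run 250 bases before to 50 after the annotated start, from RefSeq with assembly GRCm38.p6, and capitals mark the match on either strand. Trib3 lies at chr2:152344011-152344310 and Asns at chr6:7693160-7693459, both on the minus strand.
Trib3: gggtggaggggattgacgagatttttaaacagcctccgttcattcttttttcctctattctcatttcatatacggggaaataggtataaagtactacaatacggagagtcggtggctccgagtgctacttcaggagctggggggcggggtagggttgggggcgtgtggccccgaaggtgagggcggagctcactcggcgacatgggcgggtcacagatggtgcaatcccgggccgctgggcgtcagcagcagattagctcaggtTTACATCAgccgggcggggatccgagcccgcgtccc
Asns: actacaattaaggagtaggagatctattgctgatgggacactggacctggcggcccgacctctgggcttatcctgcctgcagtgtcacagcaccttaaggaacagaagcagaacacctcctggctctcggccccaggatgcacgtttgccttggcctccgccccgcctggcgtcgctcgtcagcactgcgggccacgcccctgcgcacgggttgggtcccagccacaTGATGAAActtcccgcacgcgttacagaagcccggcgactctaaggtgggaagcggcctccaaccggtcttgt
Searched on both strands, where its reverse is TTNCATCA, the motif was present in 8 of 26 members with a promoter in the table (30.8%) in 3.97% of 32851 promoters, in 4.51% of 27025 genes with a promoter and in 2.77% of the 10294 of these above the floor. The 8 members were Atf3, Trib3, Chac1, Asns, Herpud1, Nupr1, Vldlr and Fgf21, and their median difference was -0.52, against -0.17 for members without it. The list was chosen as genes of this response, so a high share and the contrast of medians can follow from that choice. The part of ATF4 in these differences was not tested. A match is a description of these letters, not evidence of binding.

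Interferon response genes, which cells switch on against viruses, had a median of -0.38 over 25 genes above the floor, and 0 passed 2-fold in either direction. Bst2, tetherin, had 9.47 in sorted cells and 10.45 in unsorted cells, 1.98-fold lower. Rsad2, viperin, had 7.18 in sorted cells and 8.10 in unsorted cells, 1.88-fold lower, and Irf7, a master regulator of the response, was 1.94-fold lower. On Bst2 and Rsad2 the unsorted array was the highest of the 6. MHC class I genes, many of which have near-identical copies, had a median of -0.18 over 13, and H2-K1 had 9.02 in sorted cells and 9.69 in unsorted cells.

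The promoters of Bst2 and Rsad2 are shown because both hold the letters GAAANNGAA, the core of the interferon-stimulated response element. Capitals mark the matches, which overlap in Bst2 and lie on the opposite strand in Rsad2, as TTCNNTTTC. Bst2 lies at chr8:71537423-71537722 and Rsad2 at chr12:26456403-26456702, both on the minus strand of GRCm38.p6.
Bst2: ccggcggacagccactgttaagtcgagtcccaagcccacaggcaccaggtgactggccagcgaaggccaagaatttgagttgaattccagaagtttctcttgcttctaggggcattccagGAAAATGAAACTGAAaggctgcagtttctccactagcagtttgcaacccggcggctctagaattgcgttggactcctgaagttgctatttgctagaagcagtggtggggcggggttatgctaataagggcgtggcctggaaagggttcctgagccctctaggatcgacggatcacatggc
Rsad2: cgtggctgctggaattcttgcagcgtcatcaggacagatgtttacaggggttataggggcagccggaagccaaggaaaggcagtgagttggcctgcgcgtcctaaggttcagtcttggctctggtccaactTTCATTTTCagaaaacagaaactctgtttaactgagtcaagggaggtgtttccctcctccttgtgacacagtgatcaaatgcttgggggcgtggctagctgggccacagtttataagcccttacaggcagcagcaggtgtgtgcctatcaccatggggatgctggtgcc
The motif was present on either strand in 11 of 19 interferon response genes with a promoter in the table (57.9%). It was present in 8.56% of 32851 promoters, 9.76% of 27025 genes and 8.37% of the 10294 above the floor. That list was chosen as genes of the interferon response, so a high share can follow from that choice. The part of the motif in the differences was not tested.

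Ribosomal, housekeeping and glycolysis genes were slightly lower in sorted cells, while lipid synthesis genes had a positive median. All 23 cytosolic ribosomal protein genes above the floor had negative differences, with a median of -0.37, though 0 passed 2-fold. Among all 13198 genes above the floor, 6246 had negative differences. Rps24 had 8.41 in sorted cells and 9.29 in unsorted cells, and Rplp0 had 7.27 in sorted cells and 7.96 in unsorted cells. Ribosomal protein genes have many near-identical pseudogenes, so single values are uncertain. Of 25 housekeeping genes, 1 passed 2-fold, Hprt, with 7.82 in sorted cells and 8.85 in unsorted cells, and the list's median was -0.23. Glycolysis and hypoxia genes had a median of -0.24, and Adm, adrenomedullin, was 2.31-fold lower. Respiratory chain genes had a median of -0.06 and cholesterol and fatty acid synthesis genes one of 0.16, with 0 past 2-fold in either list. The respiratory chain median turned to 0.11 under housekeeping centring.

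Lists of genes of other tissues that a fibroblast culture can hold had at most 1 member past 2-fold each. Over all genes above the floor, 2.12% were at least 2-fold higher and 1.02% lower. These lists are too short to be set against those shares. Of 7 endothelial genes above the floor, Flt1, a VEGF receptor, had 5.37 in sorted cells and 6.77 in unsorted cells, 2.63-fold lower. Of 8 astrocyte genes above the floor, Sox9 had 6.36 in sorted cells and 5.34 in unsorted cells, 2.03-fold higher. Sox9 had 6.19 in MEF and was also on the list of cartilage and bone genes. The astrocyte filament gene Gfap was under the floor on both arrays. Of 12 skeletal muscle genes above the floor, 0 passed 2-fold, and Myod1 had 5.66 in sorted cells and 5.76 in unsorted cells. Of 6 epithelial genes, the keratin gene Krt19 was at least 2.01-fold lower.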

How the data were processed

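From 6 µg total RNA, biotinylated cRNA was made for 1 Affymetrix array per sample, per the labels' protocols. The authors deposited log2 values, and the submitters' processing notes name Affymetrix Expression Console. Its algorithm, version and genome build are not stated there. Among 41345 probe sets, 5333 were treated as controls, 23521 had 1 gene symbol in the platform annotation, 1814 several and 10677 none. Each of 22180 genes was represented by the single-symbol probe set of highest mean across all 6 arrays, and 1082 genes had several. Values under 5.01 were raised to it. No count of reads or detection call was used, and the number of arrays limits the precision.

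Differences were sorted minus unsorted day 14, without a test. Gene spans and promoters came from RefSeq tables (GRCm38.p6); 13179 genes (99.9%) had a span. Named genes were the 15 largest differences in each direction, up to 4 members of each of 44 lists, and a preset list. The 15 per direction left out predicted genes and genes whose probe sets disagreed in sign. Genes with a single probe set, such as Mmp3 and Ecm1, passed this sign rule without any check by another probe set. Other list members named in the text were picked after their values were seen. The members and lists were chosen with earlier results of these data known. Alternatives were quantile normalization, housekeeping centring, mean of probe sets, no floor, a floor at percentile 75 and 4-fold; centring by gene length, lowess on level and keeping only genes above the floor on both arrays were chosen after seeing the data. The counting was tested on simulated data. Python 3.11.15, pandas 2.3.3 and statsmodels 0.14.6 were used.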

Additional observations from a re-analysis of the deposited data

Results flagged for a closer look

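Probe sets outside the gene comparison also differed. Of 12491 non-control probe sets with several gene symbols or none, 5084 were above the floor on either array. Among them 156 (3.07%) were at least 2-fold higher in sorted cells and 98 (1.93%) at least 2-fold lower. They drew attention because they carry differences in data the gene comparison does not use, and their shares stand beside 2.12% and 1.02% of single-symbol genes. No gene is named for them here.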

How the results depend on the processing

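With 1 array per group, no result has an error from replicates, and list medians were compared with the technical spread between probe sets. No paired analysis was possible because each group holds 1 array, numbered 1. Where a value moved, the cause was not tested unless the step itself shows it. Of 96 named genes past 2-fold, 0 changed sign under any alternative, and between 59 (floor at percentile 75) and 96 (no floor) stayed past 2-fold. Taking the floor away cannot shrink these differences, and raising it cannot reverse them, so those settings could not change a sign. The genes were also chosen for differing at least 2-fold, so the lack of reversals says little about whether they would repeat. The share of higher genes with the sorted array above the other 5 lay between 77.5% and 81.2% over all settings but 4-fold, for which it was not computed, and that of lower genes with it below the other 5 between 57.7% and 65.9%.

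Quantile normalization gave 236 genes higher and 145 lower, or 61.9% higher where the unchanged setting gave 67.5%, and medians of 0.43 for pan-neuronal, -0.050 for GABAergic and 0.35 for Hox genes. Housekeeping centring raised the all-gene median to 0.18 and gave 437 genes higher and 80 lower (84.5% higher). Its medians were 0.69 for pan-neuronal, 0.26 for GABAergic, 0.11 for parvalbumin, 0.44 for synaptic, 0.42 for channel, 0.79 for granule, 0.080 for fibroblast, -0.22 for smooth muscle, -0.22 for interferon, -0.34 for immediate early, -0.11 for stress response, 0.45 for axon guidance and 0.61 for Hox genes. The mean of probe sets gave 0.34 for pan-neuronal and -0.36 for immediate early genes.

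Without a floor 425 genes were higher and 326 lower (56.6% higher), since values near background then count, and the medians were -0.29 for GABAergic and -0.75 for macrophage genes. A floor at percentile 75 tested fewer genes and left 135 higher and 75 lower, with medians of 0.39 for pan-neuronal, 0.83 for GABAergic, -0.20 for parvalbumin, 0.56 for synaptic, 0.13 for channel, -0.22 for macrophage and 0.34 for Hox genes. At 4-fold, 9 genes were higher and 13 lower, which turned the share of higher genes to 40.9%. Centring by gene length, chosen after seeing the data, gave a share of 62.2% and medians of -0.025 for GABAergic, 0.17 for synaptic, 0.19 for channel, -0.21 for fibroblast and 0.10 for axon guidance genes. Lowess on level, also chosen after seeing the data, gave -0.015 for GABAergic genes. Keeping only genes above the floor on both arrays, chosen after seeing the data too, left 252 genes higher and 117 lower, with medians of 0.65 for pan-neuronal, 0.21 for GABAergic and -0.53 for macrophage genes.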

Other observations

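Some of the genes past 2-fold had a second probe set above the floor on both arrays, and these did not always go the same way. Of 7 such genes, 4 had the same sign on the second probe set and 3 the opposite sign. Sp100, a nuclear body protein, differed by -1.28 on the first probe set and -1.18 on the second, and Ereg, a growth factor of the EGF family, by -1.62 and -0.50. Ddx39b, an RNA helicase, differed by 1.02 on the first and -0.81 on the second, and Myl12a, a myosin light chain, by -1.04 and 0.58.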
